A study of Mus musculus with 5 samples.

Results

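In all, 10 genes used as markers of stem-like or drug-resistant tumour cells were followed through 5 RNA-seq libraries of B16F10, a mouse skin melanoma cell line. The 10 genes were taken by symbol from the 54100 gene identifiers of the table: Nes, Prom1, Cd44, Alcam, Itga6, Aldh1a3, Bmi1, Kdm5b, Abcb1b and Abcg2. The study set out to enrich cancer stem cells by different culture methods and to compare lines altered in HIF-1α, the oxygen-regulated subunit of hypoxia-inducible factor 1. There was 1 library in each of 5 groups. The conventional 3D culture, the dynamic suspension culture and the shControl cells are labelled wild type, and the other 2 libraries are labelled as a HIF-1α knockdown and as its overexpression. None received a drug treatment, and the labels give the same growth protocol for all 5 groups: serum-free medium without added growth factors shaken at 60 to 80 rpm over 7 to 10 days. How the conventional culture differed from the suspension culture, the hairpin sequence, the overexpression construct and the number of clones are details not given in the sources used here. Each library pools 3 repeats, so no value has a replicate and no difference was tested. The error given with a value covers counting only.

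Stem-like tumour cells are usually recognised by surface proteins such as CD44 and prominin-1, by aldehyde dehydrogenase activity, by chromatin regulators of self-renewal, and by pumps of the ATP-binding cassette (ABC) family that expel dyes and drugs. In melanoma, slow-cycling cells with high KDM5B, a demethylase of histone H3 lysine 4, have been described as a reserve of drug-tolerant cells. None of these genes is specific to stem cells, and most are expressed in many normal tissues. In bulk RNA, fewer cells of a type and less RNA per cell cannot be told apart.

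Some features of the libraries bear on every value. The columns of conventional 3D culture, dynamic suspension and shControl hold estimated counts with sums from 59493240 to 61267892, whereas those of the libraries labelled knockdown and overexpression hold plain counts with sums of 14803426 and 15393189. In the comparison of either of these 2 libraries with shControl, group and kind of column cannot be told apart. The level of Hif1a itself was 541.6, 390.5 and 61.3 TMM-scaled CPM, that is counts brought to a common library size, in the conventional 3D, suspension and shControl libraries, and 95.1 and 384 CPM in those labelled knockdown and overexpression. The library labelled knockdown thus held more Hif1a than its control, by a log2 ratio of 0.63 (95% counting interval 0.54 to 0.72), which goes against its label. The column of that library is headed with the bare name of the cell line, so whether it holds an altered or an unaltered line is not settled here. The wording "labelled knockdown" is kept for it, and no direction is drawn from that label. All 10 melanocyte markers were measured, with summed levels of 15439 to 33227 CPM. Of 8 fibroblast markers 6 averaged at least 1 CPM, and all 8 summed to 129 CPM in conventional 3D culture and to 15.8 to 38.4 CPM in the other 4 libraries. Of 8 markers each, 1 endothelial marker (Vwf), 1 immune marker (Cd68) and no epithelial marker were measured. Cdh5, Tek, Cd3e, Epcam and Krt5 were at 0 in every library. Of 8 neural and glial markers 5 were measured, among them S100b, which melanocytes also express.

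The promoters of 3 members are shown because they belong to a member called higher than shControl in 3 libraries (Kdm5b), the member with the highest level (Cd44) and the marker gene of the neural crest and neural stem cells (Nes). They were read from RefSeq windows of GRCm38.p6, 5′ to 3′ on the strand of the gene, up to the base before the first annotated exon. Capitals mark ACGTG or GCGTG on either strand, the core letters of the hypoxia response element to which HIF-1 is known to bind.
Kdm5b, chr1:134559928-134560170, plus strand: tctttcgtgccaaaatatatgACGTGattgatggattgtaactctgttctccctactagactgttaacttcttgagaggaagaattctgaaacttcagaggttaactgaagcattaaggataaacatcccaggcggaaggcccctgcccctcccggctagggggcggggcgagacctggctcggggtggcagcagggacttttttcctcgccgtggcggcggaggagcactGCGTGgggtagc
Cd44, chr2:102901666-102901915, minus strand: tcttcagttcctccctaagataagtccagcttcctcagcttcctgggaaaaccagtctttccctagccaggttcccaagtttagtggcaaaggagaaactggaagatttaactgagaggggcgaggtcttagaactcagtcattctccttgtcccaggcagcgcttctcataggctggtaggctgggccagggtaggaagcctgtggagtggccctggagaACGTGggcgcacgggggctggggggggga
Nes, chr3:87970843-87971077, plus strand: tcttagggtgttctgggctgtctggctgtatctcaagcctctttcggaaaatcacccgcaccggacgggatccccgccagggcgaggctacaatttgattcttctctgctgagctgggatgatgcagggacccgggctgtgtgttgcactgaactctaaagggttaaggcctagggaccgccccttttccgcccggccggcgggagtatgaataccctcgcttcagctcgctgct
Distances count from the RefSeq start, the base after the 250-base window, which for Kdm5b ends at 134560177, past the printed stretch. The Kdm5b window held ACGTG at 229 bases and GCGTG at 19 bases before that start, the Cd44 window held ACGTG at 29 bases, and the Nes window held neither. Among 32851 mouse promoter windows of 250 bases, 16.6% held ACGTG, 28.2% held GCGTG and 6.02% held CACGTG, the palindrome that contains ACGTG. Of the 10 members, 8 had a RefSeq window. Among those not printed, Bmi1 held CACGTG at 215 bases and GCGTG at 17 bases before the start, Abcb1b held 1 ACGTG and Alcam 2 GCGTG. The Abcb1b and Alcam matches lay past the first annotated exon base of the window, an exon of Gm5106 and of Alcam itself. The windows of Prom1 and Abcg2 held none of these. Matches of this length are common and describe the letters only. They do not show binding.

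Nes encodes nestin, an intermediate filament protein of neural stem cells and of many melanomas. The gene (ENSMUSG00000004891) lies on chromosome 3 from 87971078 to 87980451 in GRCm38. Its level was 19.7, 47.8 and 68.6 CPM in the conventional 3D, suspension and shControl libraries, and 120.0 and 24.1 CPM in those labelled knockdown and overexpression. The highest library exceeded the lowest 6.10-fold, and no 2 counting intervals overlapped. Conventional 3D culture and the library labelled overexpression were the low pair. Their intervals did overlap when the estimated counts were divided by 4, the spacing at which the low values of those columns pile up.

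Prom1 encodes prominin-1, a membrane protein of stem cell protrusions long used to sort tumour-initiating cells. This gene (ENSMUSG00000029086, chromosome 5 from 43993620 to 44102032) was close to absent. It had 23 counts in dynamic suspension, 8 in shControl and 0 in the other 3 libraries, or 0.381 and 0.130 CPM. The point value in dynamic suspension was 6.75 times the floor of 3 counts in conventional 3D culture, 0.0564 CPM, and that in shControl 2.30 times. Neither is a bound once counting error is included: the interval of the log2 ratio of dynamic suspension to conventional 3D culture started at 2.34, and that of conventional 3D culture to shControl ended at -0.56. With estimated counts divided by 4, the log2 ratio of dynamic suspension to conventional 3D culture went from 3.15 to 2.0. Against the libraries labelled knockdown and overexpression no fold is given for shControl, because its level lay under their floors of 0.197 and 0.179 CPM. With estimated counts of this size, all intervals of neighbouring libraries overlapped. At 424 bases the exons of Prom1 overlap those of the antisense gene Gm16401, which had 0 counts in all 5 libraries.

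Cd44 encodes the main receptor for hyaluronan and is one of the surface proteins most used to define stem-like tumour cells. It was the most abundant member by exon length, with a mean of 52.1 CPM per kb. Its level (ENSMUSG00000005087, chromosome 2 from 102811141 to 102901665) was 483.5, 285.7 and 438.6 CPM in the conventional 3D, suspension and shControl libraries, and 298 and 257.6 CPM in those labelled knockdown and overexpression. The whole span was 1.88-fold, with conventional 3D culture and shControl on the high side. The intervals of dynamic suspension and the library labelled knockdown overlapped.

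Alcam encodes an immunoglobulin-type adhesion molecule whose protein increases with depth of growth in human melanoma. Its level (ENSMUSG00000022636, chromosome 16 from 52248996 to 52454074) was 3.01, 4.85 and 14.6 CPM in the conventional 3D, suspension and shControl libraries, and 11.0 and 5.48 CPM in those labelled knockdown and overexpression. The shControl library and the library labelled knockdown were high and the other 3 low, a 4.86-fold span. The intervals of dynamic suspension and the library labelled overexpression overlapped. Those of dynamic suspension and conventional 3D culture overlapped only when the estimated counts were divided by 4.

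Itga6 encodes the α6 chain of the laminin-binding integrins. Its level (ENSMUSG00000027111, chromosome 2 from 71745616 to 71858416) was 63.2, 42.1 and 63.8 CPM in the conventional 3D, suspension and shControl libraries, and 131 and 83.4 CPM in those labelled knockdown and overexpression. Both plain-count libraries lay above the 3 estimated-count libraries, so the order followed the kind of column. Conventional 3D culture and shControl overlapped in their intervals. Of the β chains with which α6 pairs, named for that reason, Itgb1 averaged 145 CPM per kb and Itgb4 0.366, against 8.49 for Itga6.

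Aldh1a3 encodes a retinaldehyde dehydrogenase that makes retinoic acid and contributes to the dye reaction by which stem-like cells are sorted. It had the widest span of the 9 members averaging 1 CPM or more, 16.1-fold. Its level (ENSMUSG00000015134, chromosome 7 from 66390890 to 66427517) was 3.46, 0.695 and 6.64 CPM in the conventional 3D, suspension and shControl libraries, and 11.2 and 2.68 CPM in those labelled knockdown and overexpression. These values rest on 184, 42, 409, 171 and 45 counts. Dynamic suspension stood lowest and the library labelled knockdown highest. The intervals of conventional 3D culture and the library labelled overexpression overlapped.

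Bmi1 encodes a ring finger subunit of Polycomb repressive complex 1, known for repressing the Cdkn2a locus in stem cells. Its level (ENSMUSG00000026739, chromosome 2 from 18677018 to 18686629) was 107, 121.6 and 119.9 CPM in the conventional 3D, suspension and shControl libraries, and 59.7 and 86.6 CPM in those labelled knockdown and overexpression. The 3 estimated-count libraries were high and the 2 plain-count libraries low, and the intervals of dynamic suspension and shControl overlapped. Among its 50-base stretches 16.7% also occur in other genes, 650 of them in Gm5946. That gene itself had 27, 27 and 33 counts in the conventional 3D, suspension and shControl libraries. It had 0 and 1 in those labelled knockdown and overexpression, and so was low in the plain-count columns like Bmi1. How reads common to both genes were assigned is not stated in the sources used here. Commd3, the neighbour upstream of Bmi1, was at 69.9, 104, 112.7, 73.5 and 92.8 CPM in the same order and did not separate the kinds of column. Cdkn2a was at 0 in every library, and whether Bmi1 has a part in this was not tested.

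Kdm5b encodes the histone H3 lysine 4 demethylase named above. Its level (ENSMUSG00000042207, chromosome 1 from 134560171 to 134635285) was 140.3, 173 and 43.8 CPM in the conventional 3D, suspension and shControl libraries, and 68.7 and 137 CPM in those labelled knockdown and overexpression. The gene was high in 3 libraries and low in the other 2, with a 3.96-fold span. The intervals of conventional 3D culture and the library labelled overexpression overlapped. The 3 high libraries were also those with the most Hif1a, at 384 to 541.6 CPM, although the highest Kdm5b was not in the library with the highest Hif1a. This order over 5 single libraries is a description. Per kb, the related Kdm5a split the libraries alike, at 10.00, 13.32, 5.13, 6.45 and 11.99 CPM in the same order. So did Ezh1 (17.5, 16.7, 5.65, 5.96 and 16.3) and Aldh1l1 (43.6, 34.1, 9.56, 11.3 and 27.4), though others on their lists did not. The listed demethylases Kdm1a, Kdm1b, Kdm2a, Kdm2b, Kdm5c and Kdm5d did not either. The share of all genes with this split was not counted, and a link of Kdm5b to Hif1a was not tested.

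Abcb1b encodes a mouse P-glycoprotein, the drug efflux pump of multidrug resistance. Its level (ENSMUSG00000028970, chromosome 5 from 8798147 to 8866315) was 19.5, 3.08 and 16.1 CPM in the conventional 3D, suspension and shControl libraries, and 15.0 and 19.5 CPM in those labelled knockdown and overexpression. Dynamic suspension stood apart on the low side, and the other 4 libraries lay within 15.0 to 19.5 CPM. Of these, the intervals of conventional 3D culture and the library labelled overexpression overlapped, as did those of shControl and the library labelled knockdown. Those of the library labelled overexpression and shControl overlapped only when the estimated counts were divided by 4. The paralog Abcb1a shares 889 of its 50-base stretches and was at 0.733, 0.215 and 0.455 CPM in the first 3 libraries and at 0 in the other 2. The sources used here do not say how reads common to both were assigned, and the Abcb1b value carries that uncertainty. The antisense gene Gm5106, which overlaps 143 exonic bases, had at most 18 counts.

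Abcg2 encodes the pump that clears the dye used to detect side-population stem cells. Its level (ENSMUSG00000029802, chromosome 6 from 58584523 to 58695676) was 19.7, 23.8 and 34.5 CPM in the conventional 3D, suspension and shControl libraries, and 25.4 and 22.5 CPM in those labelled knockdown and overexpression. It had the narrowest span, 1.75-fold. The shControl library was highest, and the intervals of neighbours among the other 4 overlapped.

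**Figure D1:**
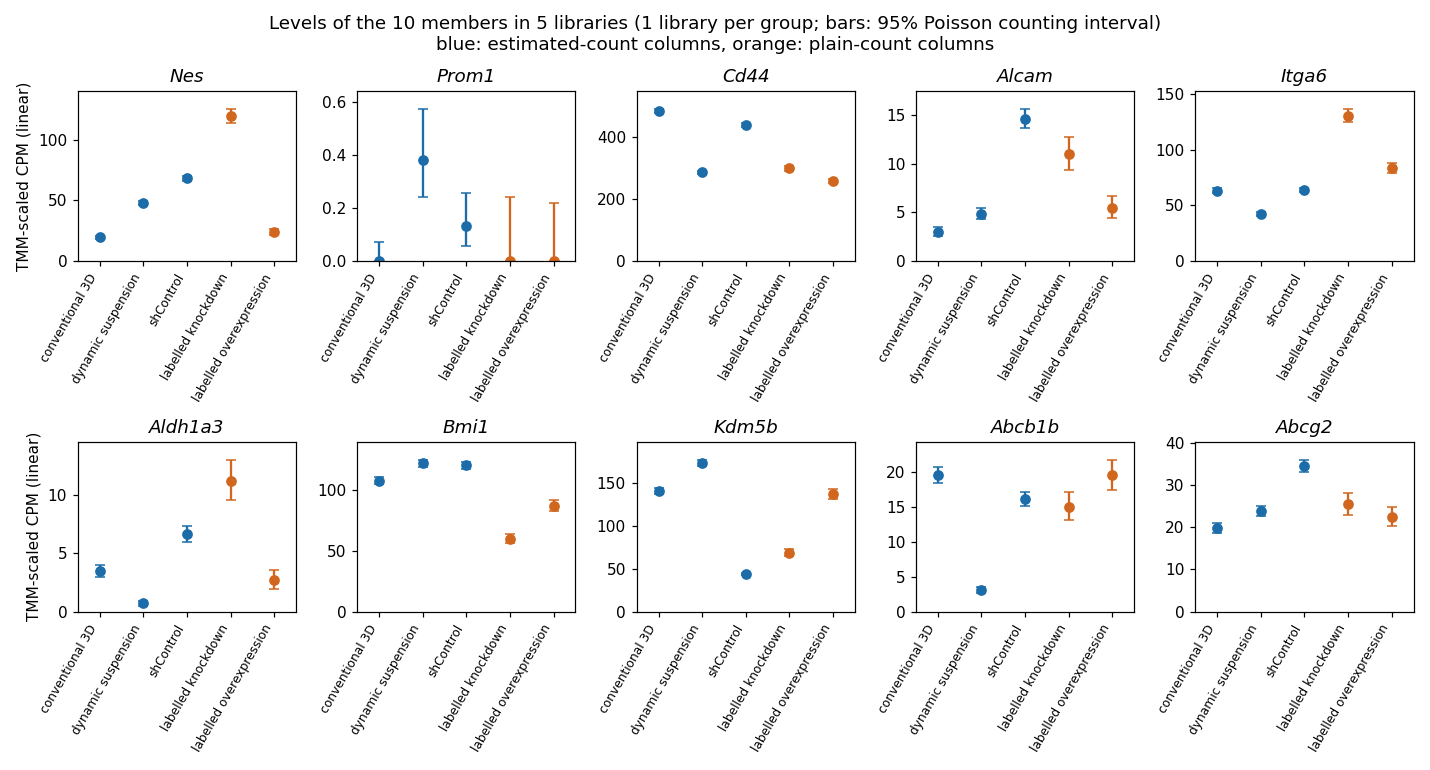
TMM-scaled CPM of each member on a linear axis from 0 in the 5 libraries, with 95% Poisson counting intervals; blue points are estimated counts and orange points plain counts. Abcb1b is low in dynamic suspension at 3.08 CPM against 15.0 to 19.5 elsewhere, and Kdm5b is low in shControl and the library labelled knockdown.

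Per kb of exon, the members ranked in the order Cd44 (52.1 CPM per kb), Bmi1 (24.9), Nes (8.73), Itga6 (8.49), Kdm5b (6.80), Abcg2 (3.09), Abcb1b (1.83), Alcam (1.09), Aldh1a3 (1.07) and Prom1 (0.0142), as means of the 5 libraries. The log2 range across libraries had a median of 1.98 over the 9 members averaging 1 CPM or more. It was 1.33 over the 12848 genes measured at that level.

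A gene was called higher or lower between 2 libraries when it passed 2-fold (a log2 ratio of 1 in size), had a mean of at least 1 CPM and had a counting interval that excluded equality. In each of the 6 comparisons 9 members passed that minimum and Prom1 did not. In total 18 calls were made, and Cd44 and Abcg2 received none. The 4 comparisons within a kind of column come first below. The comparisons with shControl share that library, so their values are given side by side and are not independent.

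**Figure D2:**
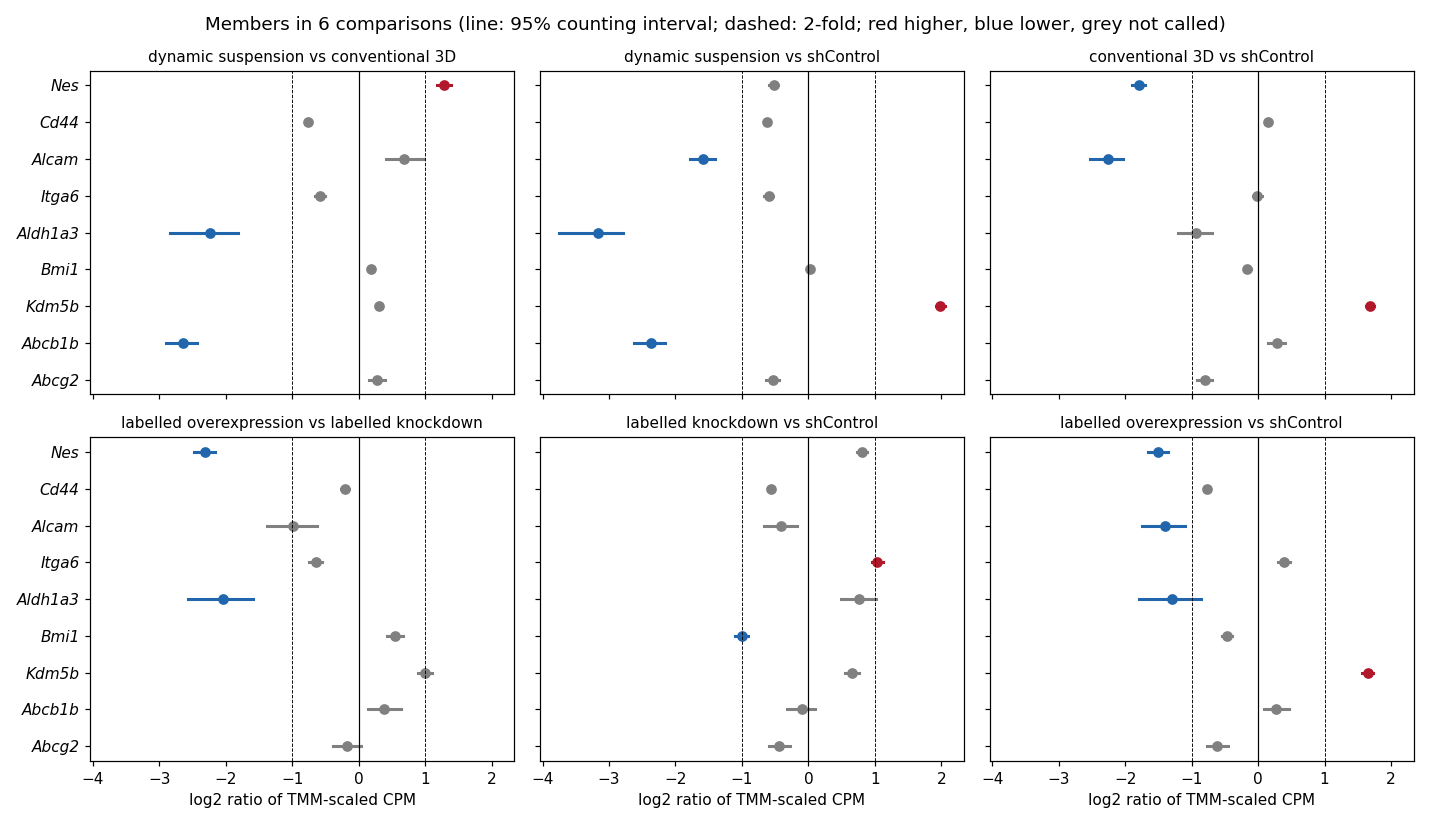
Log2 ratio of TMM-scaled CPM for the 9 members averaging 1 CPM or more in each of 6 comparisons, with 95% counting intervals; dashed lines mark 2-fold, red is called higher, blue called lower and grey not called. In the first panel Nes lies to the right of the 2-fold line and Aldh1a3 and Abcb1b to the left.

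Dynamic suspension against conventional 3D culture compares the culture methods the study set side by side. Nes was higher in dynamic suspension by a log2 ratio of 1.28 (1.18 to 1.39). Abcb1b was lower at -2.65 (-2.90 to -2.44), as was Aldh1a3 at -2.24 (-2.83 to -1.82). Thus 1 of 9 members was called higher, against 6.44% of the 12875 genes tested, and 2 were called lower, against 7.64%. The members' median log2 ratio was 0.18 and that of all genes tested -0.02. Alcam at 0.68, Cd44 at -0.76 and Itga6 at -0.59 stayed within 2-fold. Of the 8 fibroblast markers, 6 were called lower in dynamic suspension, among them Col1a1 at -2.43 and Col3a1 at -2.45, and their part in the members' differences was not tested.

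Dynamic suspension against shControl gave 1 member higher, against 13.8% of 12940 genes, and 3 lower, against 14.8%. Kdm5b, the demethylase, was higher by 1.98 (1.92 to 2.05). Aldh1a3 was lower at -3.17 (-3.75 to -2.80), Abcb1b at -2.37 (-2.62 to -2.16) and Alcam at -1.58 (-1.79 to -1.40). The lowest of these, Aldh1a3, rests on 42 counts in dynamic suspension. The median over the members was -0.60, against -0.03 over all genes tested. Nes was at -0.52 and Bmi1 at 0.02.

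Conventional 3D culture against shControl gave 1 member higher, against 14.0% of 12929 genes, and 2 lower, against 14.9%. Kdm5b was higher by 1.68 (1.62 to 1.74). Alcam was lower at -2.26 (-2.53 to -2.04) and Nes at -1.80 (-1.90 to -1.70). Abcb1b, which stood low in dynamic suspension, was at 0.28 here, and Aldh1a3 at -0.93 did not pass 2-fold. The members' median was -0.16 and that of all genes -0.01. Of the 8 fibroblast markers 6 were called higher in conventional 3D culture, and their part was not tested. With total counts in place of TMM, 4 members were called lower, Aldh1a3 and Abcg2 being added, and the share of all calls that were higher went from 48.6% to 31.8%. The same change moved that share from 45.7% to 61.4% between dynamic suspension and conventional 3D culture, where it left the members' calls as they were.

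The library labelled overexpression against the library labelled knockdown gave 0 members higher, against 17.7% of 12305 genes, and 2 lower, against 14.9%. Nes was lower at -2.31 (-2.47 to -2.16) and Aldh1a3 at -2.05 (-2.57 to -1.59). Kdm5b and Alcam lay at the edge of the threshold, at 1.00 (0.89 to 1.10) and -0.99 (-1.38 to -0.62), and were not called. Kdm5b was called in 4 of 9 alternative settings and Alcam in 2, the looser 1.5-fold threshold among them for both. The members' median was -0.21, against -0.03 over all genes. Hif1a was higher by 2.01 (1.93 to 2.10) in the same comparison. Of the 10 melanocyte markers 5 were called higher here, and their part was not tested.

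The library labelled knockdown against shControl gave 1 member higher, against 8.05% of 12639 genes, and 1 lower, against 15.7%. Both sat at the threshold: Itga6 was higher by 1.03 (0.96 to 1.11) and Bmi1 lower at -1.01 (-1.11 to -0.91). Itga6 was called in 7 and Bmi1 in 8 of 9 alternative settings, the looser 1.5-fold threshold among them for both. Nes at 0.81, Aldh1a3 at 0.75 and Kdm5b at 0.65 stayed within 2-fold. Of the 10 melanocyte markers 4 were called lower here, and of 6 fibroblast markers tested 2 were higher and 3 lower. Their part was not tested. The median over the members was -0.10, and over all genes 0.01.

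The library labelled overexpression against shControl gave 1 member higher, against 16.1% of 12881 genes, and 3 lower, against 20.1%. Kdm5b was higher by 1.64 (1.56 to 1.73). Nes was lower at -1.51 (-1.66 to -1.36), Alcam at -1.41 (-1.74 to -1.10) and Aldh1a3 at -1.29 (-1.79 to -0.86). The pumps stayed within 2-fold, with Abcb1b at 0.27 and Abcg2 at -0.61. The members' median was -0.61 and that of all genes -0.02. Among the fibroblast markers 1 was higher and 4 were lower in the same comparison, and their part was not tested. In 5 of the 6 comparisons members were called in both directions.

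For the lists of related genes that follow, the background of each count of called genes is the share of all genes given above for that comparison. Among the 17 other ABC transporters listed as known or possible drug pumps, 8 or 9 reached the minimum in a comparison. By mean level per kb, Abcg2 ranked 7 and Abcb1b 10 of 19. Abca2, a lysosomal lipid transporter, led with 22.0 CPM per kb. It was higher than in shControl by 1.85 in the library labelled overexpression and by 1.48 in conventional 3D culture. Abcb6, a porphyrin transporter, was 1 of 2 transporters called lower in dynamic suspension between the culture methods, at -2.02, beside Abcc4 at -1.15, with 0 called higher. The list had a median of -0.42 there, against -0.02 over all genes tested. Abcb6 was also the 1 gene called lower than shControl in dynamic suspension, at -1.50, and in the library labelled knockdown, at -3.84. Between the libraries labelled overexpression and knockdown 1 was higher, Abca2 at 1.11. In the library labelled overexpression 4 transporters were called higher than in shControl, among them Abcc1 at 1.44, and 1 lower. Abcb5, a pump described in melanoma-initiating cells and named for that reason, was at 0 in every library.

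Aldh1a3 ranked 14 of 19 aldehyde dehydrogenases per kb, far below the mitochondrial Aldh2 at 66.8 CPM per kb. Of 18 other family members 13 were tested, and 0 were called between dynamic suspension and conventional 3D culture in either direction, where Aldh1a3 was lower. Against shControl 3 were called higher and 0 lower in dynamic suspension, and the same counts held in conventional 3D culture. Aldh1l1, an enzyme of folate metabolism, was at 1.83 and 2.19 in those comparisons, and Aldh6a1, of valine breakdown, at 1.70 and 1.25. In the library labelled overexpression 3 were higher and 1 lower than in shControl, with Aldh6a1 at 1.61. In the library labelled knockdown 1 was higher, Aldh18a1 of proline synthesis at 1.06, and 1 lower, Aldh4a1 of proline breakdown at -1.54. Between the libraries labelled overexpression and knockdown 3 were higher and 2 lower, with Aldh18a1 at -1.93. The list median was -0.32 between the culture methods.

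**Figure D3:**
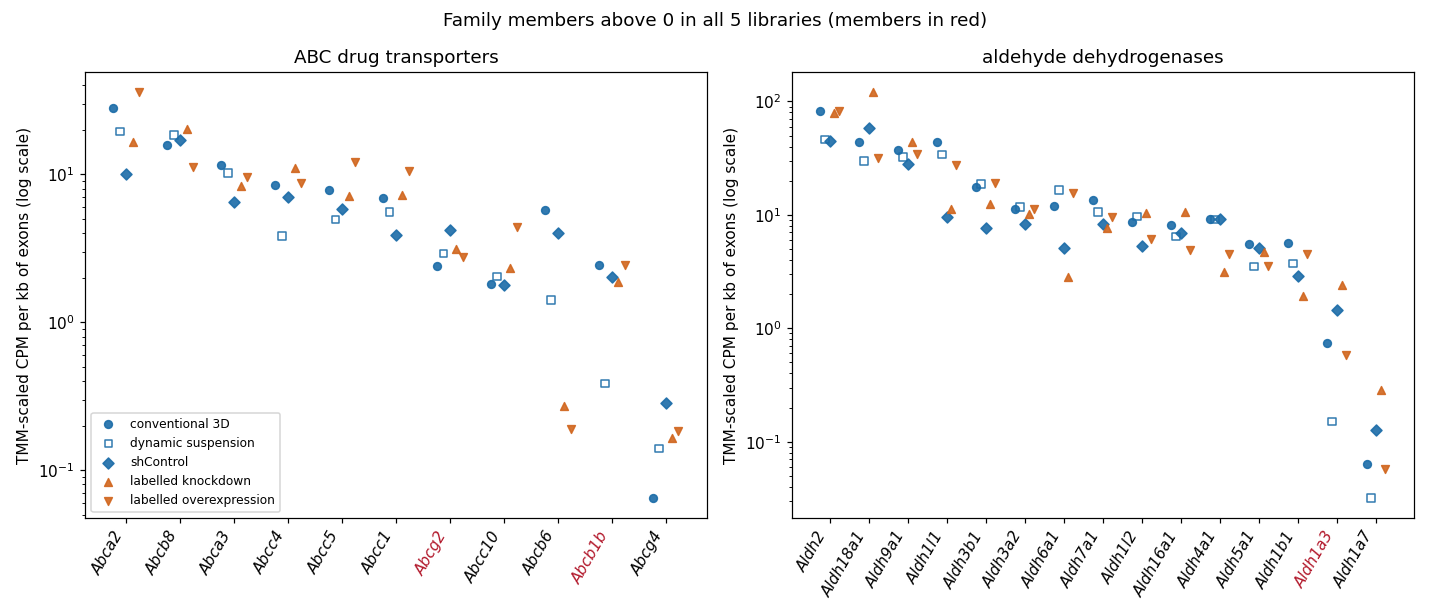
TMM-scaled CPM per kb of exons (log scale) in the 5 libraries for ABC transporters and aldehyde dehydrogenases above 0 in every library, ordered by mean level, with members in red. Aldh1a3 and Abcb1b lie in the lower part of their families, and both have their lowest point in dynamic suspension.

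Bmi1 ranked 3 of 25 Polycomb genes per kb. All 24 others were tested, and 1 was called between the culture methods: Phc3, a subunit of the same complex 1, higher in dynamic suspension by 2.49. Against shControl, 4 were higher and 2 lower in dynamic suspension, and 1 was higher and 1 lower in conventional 3D culture. The methyltransferase genes of complex 2 went opposite ways in both, with Ezh2 at -2.38 and -1.90 and Ezh1 at 1.56 and 1.63. Ezh2 in the library labelled overexpression was at -2.89 and Ezh1 at 1.53, among 2 genes higher and 2 lower. In the library labelled knockdown 2 were higher, among them Cbx2 at 1.44, and 0 lower. Between the libraries labelled overexpression and knockdown 2 were higher and 3 lower. The list median was 0.16 between the culture methods.

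Kdm5b ranked 4 of 8 listed histone lysine demethylases of the Kdm1, Kdm2 and Kdm5 families. Of 7 others 6 were tested. Against shControl, 2 were called higher in dynamic suspension, with Kdm5a at 1.38 and Kdm2a at 1.06, and 1 in the library labelled overexpression, with Kdm5a at 1.22. None was called in conventional 3D culture against shControl, where Kdm5b was at 1.68, and 0 were called lower in these comparisons. In the library labelled knockdown 1 was higher, Kdm2b at 1.39, and the same gene was the 1 called lower in the library labelled overexpression against it, at -1.15. Between the culture methods 0 were called, with a list median of 0.39.

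Among 26 other integrins and hyaluronan partners, 16 or 17 were tested. Itgb3, the β3 integrin linked to invasive melanoma, was at 759.3, 145.3, 41.8, 24.0 and 396.1 CPM in the order used above, high where Cd44 was at its highest but also in the library with the lowest Cd44. Between dynamic suspension and conventional 3D culture 1 gene was called higher, Spp1 at 2.89, and 4 lower, with Itgb3 at -2.39. Spp1 encodes osteopontin, which binds CD44 and integrins. The list median was -0.36 in that comparison. Against shControl 2 were higher and 3 lower in dynamic suspension, and 5 and 3 in conventional 3D culture. The library labelled knockdown had 2 higher and 3 lower, and the library labelled overexpression 5 and 3. Between those 2 libraries 6 were higher and 2 lower in the library labelled overexpression. Hmmr, which encodes another hyaluronan receptor, was lower than in shControl by -4.58 in dynamic suspension and -2.26 in conventional 3D culture, and the libraries labelled knockdown and overexpression stood at -1.32 and -2.63. Cd44 in those comparisons was at -0.62, 0.14, -0.56 and -0.77.

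Nes ranked 5 of 14 intermediate filament and radial glia genes. Between the culture methods 5 of 9 tested were called lower in dynamic suspension and 0 higher, with Vim at -1.57 and Lmna at -1.49, whereas Nes was higher. The list median was -1.01 there. The lamin genes Lmnb1 and Lmnb2 were lower than in shControl in dynamic suspension at -4.03 and -2.15, and in conventional 3D culture at -3.09 and -1.80. They were at -3.75 and -1.70 in the library labelled overexpression. Against shControl 2 were higher and 4 lower in dynamic suspension, 3 and 2 in conventional 3D culture, 0 and 0 in the library labelled knockdown, and 4 and 2 in the library labelled overexpression. Between the libraries labelled overexpression and knockdown 4 were higher and 2 lower. Gfap, an astrocyte filament gene that is also on the glial marker list, was higher than shControl in conventional 3D culture at 1.75, in dynamic suspension at 1.11 and in the library labelled overexpression at 1.24.

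Alcam ranked 7 of 12 immunoglobulin-type adhesion genes, of which Mcam, a melanoma progression marker, led. Mcam was at 12.7, 152.4 and 442 CPM in the conventional 3D, suspension and shControl libraries, and at 344 and 32.2 CPM in those labelled knockdown and overexpression. It was thus highest in the 2 libraries where Alcam was highest, and lowest in conventional 3D culture like Alcam. Of 6 tested, 3 were called lower than shControl in conventional 3D culture and 0 higher, with Mcam at -5.12 and Ncam1 at -2.28. In dynamic suspension 0 were higher and 2 lower than shControl, and 2 were higher and 1 lower than in conventional 3D culture, with a median of 0.04. The library labelled knockdown had 1 higher and 1 lower than shControl. The library labelled overexpression had 2 higher and 3 lower, against shControl and against the library labelled knockdown alike. Of the 4 genes of the INK4 family, Cdkn2a and Cdkn2b, which form the locus that Bmi1 is known to repress, did not reach the minimum. The other 2, Cdkn2c and Cdkn2d, lie elsewhere and were tested. Cdkn2c was higher in conventional 3D culture than in shControl by 1.55. Between the culture methods it was lower in dynamic suspension, at -2.28. No other call was made on that list.

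Of 29 further stem-like or tumour-initiating markers, 15 to 18 were tested. Between dynamic suspension and conventional 3D culture 3 of 15 were higher and 3 lower, against 6.44% and 7.64% of all genes tested. Sox9, a neural crest factor, was higher by 1.42 and Procr, the protein C receptor, lower at -1.63. Against shControl, 3 of 16 were higher and 4 lower in dynamic suspension (all genes: 13.8% and 14.8%). In conventional 3D culture 3 of 18 were higher and 5 lower (14.0% and 14.9%). The library labelled knockdown had 1 of 16 higher and 2 lower (8.05% and 15.7%), and that labelled overexpression 3 of 15 and 6 (16.1% and 20.1%). Between the libraries labelled overexpression and knockdown 1 of 15 was higher and 5 were lower (17.7% and 14.9%). The list median was 0.04 between the culture methods. Procr was higher in conventional 3D culture at 2.35 and in the library labelled overexpression at 2.08. Notch1, a receptor of cell fate decisions, was higher than shControl in the library labelled knockdown by 2.33, and was also called higher in the library labelled overexpression, at a mean under 10 CPM.

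The genes most like a member over the 5 libraries were sought among 9173 protein-coding genes averaging 10 CPM or more. This was done for the 4 members averaging 1 CPM or more with a log2 range of at least 2, which leaves out Prom1. Likeness was the root mean square difference of centred log2 CPM, where 0 means the same profile. With 5 points and 9173 candidates, close profiles will be found for most genes. Nes was nearest to Cdh2 (N-cadherin, 0.147), Kirrel (0.200) and Ccn1 (0.221). Alcam was nearest to Etaa1 (0.0983), Ss18l2 (0.135) and Smc6 (0.145), and Aldh1a3 to Stil (0.160), Kntc1 (0.197) and Cdca5 (0.223). For Abcb1b the nearest were Fry (0.367), Slc6a15 (0.374) and Sdk1 (0.387), farther off than those of the other 3 members. In dynamic suspension Fry was at 8.92 CPM, against 20.7 to 39.2 in the other libraries.

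**Figure D4:**
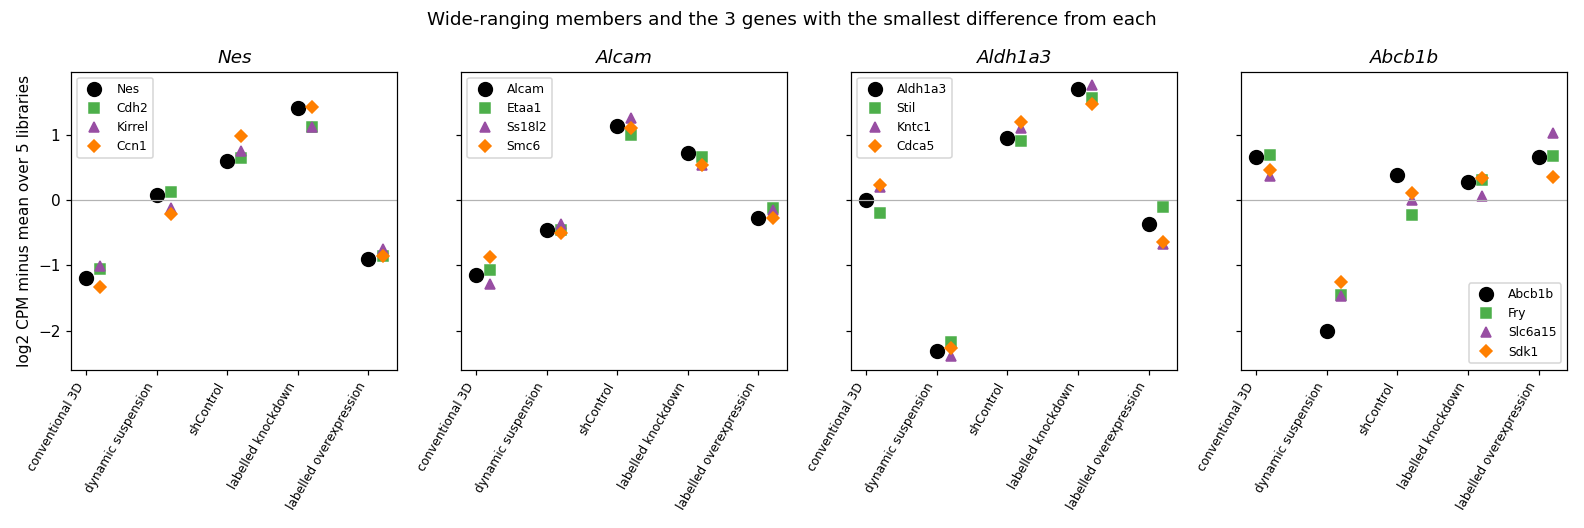
Log2 CPM minus its mean over the 5 libraries for the 4 widest-ranging members averaging 1 CPM or more (black) and their 3 nearest genes (coloured). The genes near Abcb1b drop less in dynamic suspension than Abcb1b itself, and their root mean square differences are 0.367 to 0.387.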

How the data were processed

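RNA was measured in 5 B16F10 libraries. Per the labels' protocols, poly(A) RNA from 3 pooled repeats gave strand-specific paired 150 bp reads. The tools cutadapt, HISAT2 and StringTie and the builds GRCm38.p6 and mm10 are named per the submitters' processing notes. The counting program and its strand setting are details not given in the sources used here. The deposited values of conventional 3D culture, dynamic suspension and shControl are estimated counts, judged by low values that pile up at multiples of 4, and the other 2 deposited columns are plain counts. Totals were 61267892, 61014260, 59493240, 14803426 and 15393189 for conventional 3D culture, dynamic suspension, shControl and the libraries labelled knockdown and overexpression. Estimated counts may be in another unit than counts, so these totals do not compare depth.

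All 54100 identifiers matched GENCODE M21 (GRCm38). Library sizes were scaled by TMM (edgeR 4.0.16, R 4.3.3). Log2 ratios used a prior count of 2, with exact conditional binomial (Clopper-Pearson) 95% intervals for counting error only, approximate for estimated counts. Calls needed 2-fold, a mean of 1 CPM and an interval without equality. With 1 library per group no test was run. Zeros were set against a floor of 3 counts. Ratio calling was tested on simulated Poisson counts with planted changes. These hold no variation between cultures and no estimated counts, so the test checks the calculation and not the calls. Shared sequence was counted in 50-base stretches of the annotated transcripts.

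The members, the 9 lists of related genes and the 6 marker lists were chosen with earlier results of these data known, and 8 genes are on more than 1 list. At most 4 called genes of a list and comparison are named, those with the largest ratios and a mean of at least 10 CPM. Likeness was sought for members averaging 1 CPM or more and ranging over at least 2 log2 units. The 9 alternative settings cover scaling (total counts, DESeq2 1.42.0 size factors, TMM over a pair or over genes with exons of their own), filters, prior count, division of estimated counts by 4, and the fold threshold.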

Additional observations from a re-analysis of the deposited data

How the results depend on the processing

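No ratio called between libraries reversed under any of the 9 settings, but this is no check of direction. A called log2 ratio is at least 1 in size. The alternative scalings shift all ratios of a comparison together by much less, and the prior count and the division by 4 moved called ratios little. The minimum of 10 CPM and the 1.5-fold threshold leave the ratios unchanged and could not reverse one, and the looser threshold could not lose a call. Of the 18 calls, 9 held under every setting, and 16 held under every setting other than the minimum of 10 CPM, the exceptions being Itga6 and Bmi1 between the library labelled knockdown and shControl. A minimum mean of 10 CPM left 1 member lower in dynamic suspension against conventional 3D culture, 0 against shControl, 1 in conventional 3D culture against shControl and 1 in the library labelled overexpression against the library labelled knockdown, because Alcam, Aldh1a3 and, in 1 comparison, Abcb1b fell under it. Of all genes tested at that minimum, 471 of 9332, 1232 of 9510, 1164 of 9482 and 1319 of 9264 were called lower in those comparisons, in that order. A 1.5-fold threshold gave 2 members higher and 4 lower in dynamic suspension against conventional 3D culture, 5 lower in dynamic suspension and 4 lower in conventional 3D culture against shControl. It gave 1 higher and 4 lower between the libraries labelled overexpression and knockdown, 4 higher in the library labelled knockdown and 5 lower in the library labelled overexpression against shControl. Among all genes tested, more were also called at 1.5-fold than at 2-fold, in both directions and in every comparison. The shares of all genes given above are for the 2-fold threshold and are not the background of the 1.5-fold counts. Total counts gave 4 lower in conventional 3D culture against shControl and 1 higher (Kdm5b) between the libraries labelled overexpression and knockdown, and the median of all genes moved from -0.02 to 0.17 between the culture methods and from -0.01 to -0.27 in conventional 3D culture against shControl. With total counts, 2740 of 12838 genes were lower in conventional 3D culture against shControl. Between the libraries labelled overexpression and knockdown 2434 of 12400 were higher. Restricting the table to genes with at least 10 counts in every library, or TMM over genes with exons of their own, gave 1 higher (Kdm5b) between the libraries labelled overexpression and knockdown and 0 higher in the library labelled knockdown against shControl, where Itga6 was lost. DESeq2 size factors gave 0 lower in the library labelled knockdown against shControl, where Bmi1 was lost, and added Alcam to make 3 lower between the libraries labelled overexpression and knockdown. In the 2 comparisons of the restricted table, 1981 of 11865 and 819 of 11812 genes were higher. With TMM over genes with exons of their own, 2204 of 12254 and 780 of 12628 were higher. With DESeq2 size factors, 1867 of 12637 genes were lower in the library labelled knockdown against shControl. Between the libraries labelled overexpression and knockdown 1911 of 12322 were lower. For these scalings and filters the cause was not tested. A prior count of 0.5, TMM over the pair and division of estimated counts by 4 changed no call. No paired analysis was possible because each group has 1 library. Counting error limits Prom1, for which 0 counts in the library labelled knockdown have a 95% upper limit of 0.242 CPM.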
